A study of Homo sapiens with 8 samples.

Results

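The DNA replication and S phase genes are the genes whose products prepare replication origins, build and run the replication fork, supply nucleotides and histones, and watch over the fork while the genome is copied. They were chosen by name, as a list of 56 gene symbols drawn up with earlier results of these data known, and 55 of them had a row of their own on the arrays among 18377 genes with such a row. The remaining symbol was not analysed here. No measured value served as a rule for choosing the genes of this list, but the choice was not blind to these data.

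RNA was measured in 2 stable lines of SHSY5Y, a human neuroblastoma cell line of neural crest origin, each grown in differentiation conditions (DF) and in non-differentiation conditions (NDF). The 4 groups were V71 DF, V71 NDF, PLKO DF and PLKO NDF, with 2 arrays each and 8 in all. Plates were coated with laminin in both conditions. DF cells had 10 µM retinoic acid for 5 days and then 2 nM BDNF, a neurotrophin, for 3 days in medium free of serum, whereas the growth medium of NDF cells held 10% serum. Retinoic acid, BDNF and the loss of serum came together in DF and cannot be told apart. Both lines were made with viruses and kept under selection with puromycin, and the sources used here do not say whether a line is 1 clone or a pool. The labels conflict on what the lines are. Under treatment, V71 samples carry the word Control and PLKO samples the word shRNA, while the methods name the pLKO vector as the control and the digits of V71 match the end of the number of their shRNA clone. The lines are therefore called by the code in the sample titles, and a direction between them says only which code was higher. The level of the targeted gene was not used here to check the labels. The methods call the arrays of a group biological duplicates and the labels only number them, so p-values measure the spread between these arrays, which may be partly technical. The sample titles also carry a running code in which all NDF samples come before all DF samples. What the code counts is not given, and an effect of that order cannot be told apart from the condition.

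Every value is the deposited log2 value of an Affymetrix Human Gene 1.0 ST array, a whole-transcript array, and a difference of 1 on this scale is a 2-fold difference. Changes are differences of group means on the log2 scale, given ± the standard error of the fit. The lowest Spearman correlation of 2 arrays of the same group was 0.9947 and the highest of arrays from different groups was 0.9931. A gene was called in a comparison where its adjusted p was below 0.05 and its fold 1.5 or more, by limma's moderated test on all 8 arrays and Benjamini-Hochberg adjustment over all 28869 rows of the arrays. The labelled cell type was checked with 2 marker lists. Of 13 noradrenergic neuroblast markers, 12 lay above the median of all genes on every array, against 5 of 20 markers of substrate-adherent (S-type) neuroblastoma cells.

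Replication is licensed when the origin recognition complex, CDC6 and CDT1 load the MCM helicase onto DNA, and the helicase is switched on at the start of S phase by CDC7, MCM10, CDC45 and the GINS complex. Most genes of this machinery are transcribed at the border of G1 and S phase by E2F factors, which pocket proteins of the retinoblastoma family hold in check in cells that rest or leave the cell cycle. Retinoic acid is widely used to slow the division of neuroblastoma cells and to make them extend neurites.

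The promoter windows of 4 of these genes show the kind of element that E2F factors are known to bind. For each of 4 role groups the gene printed is the one with the largest fall among those called lower in both lines and holding an E2F word in the window. Each sequence runs 5′ to 3′ on the strand of the gene, with 250 bases before the RefSeq start and the first 30 transcribed bases, and comes from RefSeq on GRCh38.p14. Capitals mark the E2F word, which was searched as TTTCCCGC, TTTCGCGC, TTTGCCGC or TTTGGCGC on both strands. The TYMS window lies at chr18:657403-657682 on the plus strand, the EXO1 window at chr1:241847954-241848233 on the plus strand, the CENPU window at chr4:184734067-184734346 on the minus strand and the CDC6 window at chr17:40287629-40287908 on the plus strand.
TYMS: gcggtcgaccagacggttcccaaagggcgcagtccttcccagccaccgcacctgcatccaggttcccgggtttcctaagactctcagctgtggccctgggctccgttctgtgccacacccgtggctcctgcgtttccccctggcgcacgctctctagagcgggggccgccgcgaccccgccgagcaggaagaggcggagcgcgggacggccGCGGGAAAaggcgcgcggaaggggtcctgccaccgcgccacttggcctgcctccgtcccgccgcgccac
EXO1: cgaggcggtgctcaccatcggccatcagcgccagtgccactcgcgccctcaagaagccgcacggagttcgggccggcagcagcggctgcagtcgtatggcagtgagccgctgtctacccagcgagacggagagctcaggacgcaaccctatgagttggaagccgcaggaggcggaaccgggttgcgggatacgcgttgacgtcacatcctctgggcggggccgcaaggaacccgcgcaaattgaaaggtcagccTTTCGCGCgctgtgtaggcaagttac
CENPU: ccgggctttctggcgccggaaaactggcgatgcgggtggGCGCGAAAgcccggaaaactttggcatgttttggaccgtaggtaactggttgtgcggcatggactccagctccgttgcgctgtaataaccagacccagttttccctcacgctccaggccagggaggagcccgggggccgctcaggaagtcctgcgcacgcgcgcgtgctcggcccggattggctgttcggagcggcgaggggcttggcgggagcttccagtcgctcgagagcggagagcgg
CDC6: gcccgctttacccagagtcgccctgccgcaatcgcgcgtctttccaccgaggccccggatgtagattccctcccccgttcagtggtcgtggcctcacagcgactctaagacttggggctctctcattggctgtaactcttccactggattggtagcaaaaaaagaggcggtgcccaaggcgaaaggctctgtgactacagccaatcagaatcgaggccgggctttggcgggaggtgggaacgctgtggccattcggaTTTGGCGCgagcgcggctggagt
The word in TYMS reads on the opposite strand and begins 39 bases before the start, and that in CENPU, also on the opposite strand, begins 211 bases before it. In EXO1 the word begins at base 5 of the transcript and in CDC6 at base 8. A match is a string of letters in a window and not a measured site.

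Upon differentiation the DNA replication and S phase genes were mostly called lower in both lines, and none was called higher. In V71, 42 of the 55 were called lower in DF than in NDF, against a background of 3.55% of all genes, and in PLKO 51 were, against 4.16%. None was called higher in V71, where 3.98% of all genes were, and none in PLKO, where 2.88% were. The median change was -0.78 in V71 (range -1.26 to -0.08) and -1.02 in PLKO (range -1.61 to -0.19), while the medians over all genes were within 0.0129 of 0. The median standard error of a change was 0.10. All 42 genes called in V71 were among those called in PLKO, 9 were called in PLKO alone and 4 in neither line. A fall of at least 2-fold at an adjusted p below 0.05 was seen for 11 genes in V71 and for 30 in PLKO. The share of all genes at 2-fold was not computed and can be no larger than that at 1.5-fold. For 54 genes both DF arrays of V71 lay below both its NDF arrays, against 27.3% of all genes, and for the same 54 this held in PLKO, against 25.9%. The gene left was DUT.

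The mean level of the 55 genes was 6.84 and 6.79 on the V71 DF arrays and 7.59 and 7.59 on the V71 NDF arrays, and 6.37 and 6.48 on the PLKO DF arrays and 7.47 and 7.46 on the PLKO NDF arrays. The DF arrays of both lines thus lay below all 4 NDF arrays, and the V71 DF arrays lay above the PLKO DF arrays. In RNA from whole cultures, fewer cells in S phase and less RNA per cell cannot be told apart. No gene of the list had a group mean below the lower quartile of all genes in any group.

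**Figure D1:**
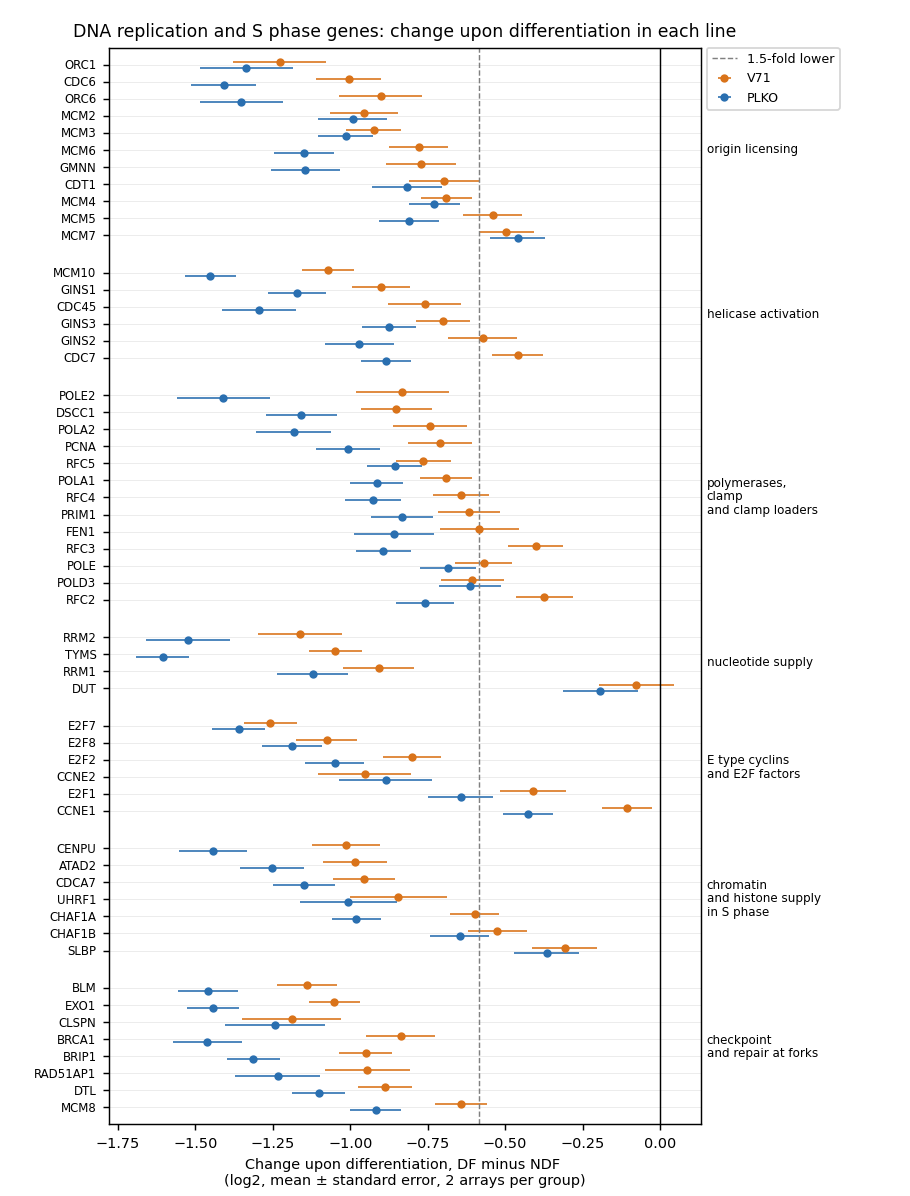
Change upon differentiation (DF minus NDF, log2, mean and standard error from the fit, 2 arrays per group) of each of the 55 genes by role group, V71 in orange above PLKO in blue, with a dashed line at 1.5-fold lower. All points lie left of 0, and the V71 point lies right of the PLKO point for 53 of the 55 genes.

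Of the 11 licensing genes, 9 were called lower in V71 and 10 in PLKO, with median changes of -0.78 and -1.02. ORC1, the subunit of the origin recognition complex that recruits CDC6, measured 5.63 and 5.14 in V71 DF and 6.63 and 6.60 in V71 NDF, and 5.08 and 4.99 in PLKO DF and 6.495 and 6.25 in PLKO NDF. It fell by 1.23 ± 0.15 (adjusted p = 0.000554) in V71 and by 1.34 ± 0.15 (adjusted p = 0.000288) in PLKO. The loader CDC6 measured 7.30 and 7.13 in V71 DF, against 8.20 and 8.24 in V71 NDF, and 6.45 and 6.71 in PLKO DF, against 7.99 and 7.99 in PLKO NDF. Its fall was 1.01 ± 0.11 (adjusted p = 0.00021) in V71 and 1.41 ± 0.11 (adjusted p = 2.17e-05) in PLKO, and its DF arrays were higher in V71 than in PLKO with no overlap. ORC6, the smallest subunit of the same complex, had 6.39 and 6.35 in V71 DF and 7.30 and 7.24 in V71 NDF, and 5.54 and 5.99 in PLKO DF and 7.18 and 7.05 in PLKO NDF. It fell by 0.90 ± 0.13 (adjusted p = 0.00174) in V71 and by 1.35 ± 0.13 (adjusted p = 0.00013) in PLKO. CDT1, which brings the helicase to the origin, and GMNN, which encodes geminin, the inhibitor of CDT1, were called lower in both lines. CDT1 changed by -0.70 in V71 and -0.82 in PLKO, and GMNN by -0.77 in V71 and -1.15 in PLKO.

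Of the 6 subunits of the MCM helicase, which form a ring around DNA, 4 were called lower in both lines, 1 in PLKO alone and 1 in neither line. MCM2 measured 6.997 and 6.78 in V71 DF, against 7.74 and 7.95 in V71 NDF, and 6.37 and 6.43 in PLKO DF, against 7.47 and 7.32 in PLKO NDF, and it fell by 0.96 ± 0.11 (adjusted p = 0.000394) in V71 and by 0.99 ± 0.11 (adjusted p = 0.000271) in PLKO. MCM6 and MCM4 were also called lower in both lines, MCM6 with changes of -0.78 in V71 and -1.15 in PLKO, and MCM4 with -0.69 in V71 and -0.73 in PLKO. MCM5 measured 7.78 and 7.65 in V71 DF and 8.17 and 8.35 in V71 NDF, and 7.16 and 7.22 in PLKO DF and 8.04 and 7.96 in PLKO NDF. Its change in V71 was -0.54 ± 0.10 (adjusted p = 0.00473), short of 1.5-fold, whereas it was called lower in PLKO, by 0.81 ± 0.10 (adjusted p = 0.000409). MCM7 had the smallest changes of the 6, with 9.04 and 8.92 in V71 DF, against 9.43 and 9.53 in V71 NDF, and 8.84 and 8.79 in PLKO DF, against 9.31 and 9.23 in PLKO NDF. Its changes of -0.50 ± 0.09 in V71 (adjusted p = 0.00485) and -0.46 ± 0.09 in PLKO (adjusted p = 0.00771) passed the p threshold and not the fold. The 95% interval of its change was -0.695 to -0.297 in V71 and -0.658 to -0.26 in PLKO.

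MCM3 stood apart from the other subunits in the comparison of the lines. It measured 7.08 and 6.90 in V71 DF and 7.90 and 7.93 in V71 NDF, and 7.50 and 7.48 in PLKO DF and 8.54 and 8.47 in PLKO NDF, so that V71 lay below PLKO in both conditions with no overlap. In DF the difference was -0.51 ± 0.09 (adjusted p = 0.0115), short of 1.5-fold. In NDF it was lower in V71 than in PLKO by 0.60 ± 0.09 (adjusted p = 0.00674), the only gene of the list called there. Without the V71 NDF replicate 2 array, and without either PLKO NDF array, the NDF difference was no longer called, and its adjusted p ran from 0.00112 to 0.0898 over all alternatives. Its fall upon differentiation was 0.92 ± 0.09 (adjusted p = 0.000128) in V71 and 1.02 ± 0.09 (adjusted p = 5.78e-05) in PLKO, and these differed by 0.09 (95% interval -0.193 to 0.375). The other 5 subunits had higher means in V71 in both conditions, by 0.17 to 0.52 in DF and by 0.08 to 0.45 in NDF, and none of these differences was called.

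**Figure D2:**
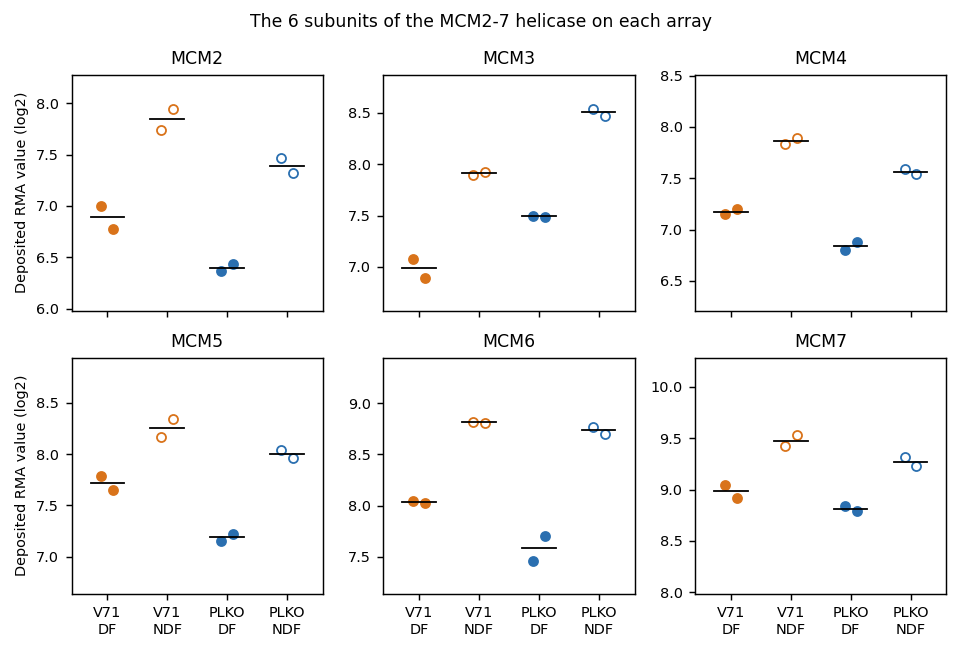
Deposited log2 value of the 6 subunits of the MCM helicase on each of the 8 arrays, V71 in orange and PLKO in blue, DF filled and NDF open, with a line at the group mean. In each panel the DF points lie below the NDF points of the same line, and in MCM3 alone the V71 points lie below the PLKO points of the same condition.

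Of the 6 genes that activate the helicase, 4 were called lower in V71 and all 6 in PLKO, with median changes of -0.73 and -1.07. MCM10, which helps to open the loaded helicase, measured 7.34 and 7.32 in V71 DF, against 8.37 and 8.43 in V71 NDF, and 6.69 and 6.79 in PLKO DF, against 8.16 and 8.21 in PLKO NDF. It fell by 1.07 ± 0.08 (adjusted p = 3.21e-05) in V71 and by 1.45 ± 0.08 (adjusted p = 4.02e-06) in PLKO. GINS1, a subunit of the GINS complex that travels with the helicase, measured 7.03 and 7.22 in V71 DF and 7.99 and 8.06 in V71 NDF, and 6.57 and 6.62 in PLKO DF and 7.72 and 7.81 in PLKO NDF. Its fall was 0.90 ± 0.09 (adjusted p = 0.000198) in V71 and 1.17 ± 0.09 (adjusted p = 3.1e-05) in PLKO. CDC45, the third part of the active helicase, had 6.75 and 6.42 in V71 DF, against 7.37 and 7.33 in V71 NDF, and 5.97 and 6.12 in PLKO DF, against 7.41 and 7.28 in PLKO NDF. It fell by 0.76 ± 0.12 (adjusted p = 0.00223) in V71 and by 1.29 ± 0.12 (adjusted p = 7.2e-05) in PLKO, and no DF array of V71 overlapped the DF arrays of PLKO.

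The other subunits of GINS and the kinase CDC7 had smaller changes in V71 than in PLKO, and none of these differences in the change was called. GINS3 measured 6.62 and 6.53 in V71 DF and 7.21 and 7.34 in V71 NDF, and 6.01 and 5.92 in PLKO DF and 6.82 and 6.85 in PLKO NDF, with falls of 0.70 ± 0.09 (adjusted p = 0.000601) in V71 and 0.88 ± 0.09 (adjusted p = 0.00013) in PLKO. GINS2 measured 6.73 and 6.49 in V71 DF, against 7.25 and 7.11 in V71 NDF, and 6.12 and 6.01 in PLKO DF, against 7.13 and 6.94 in PLKO NDF. Its change was -0.57 ± 0.11 in V71 (adjusted p = 0.00778), just short of 1.5-fold, and it was called lower in PLKO, by 0.97 ± 0.11 (adjusted p = 0.000323). CDC7, the kinase that phosphorylates the loaded helicase, measured 6.06 and 6.07 in V71 DF and 6.55 and 6.498 in V71 NDF, and 5.56 and 5.65 in PLKO DF and 6.47 and 6.51 in PLKO NDF. The kinase changed by -0.46 ± 0.08 in V71 (adjusted p = 0.00462) and was called lower in PLKO, by 0.89 ± 0.08 (adjusted p = 7.48e-05).

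Of the 13 genes for polymerases, the sliding clamp and its loaders, 9 were called lower in V71 and all 13 in PLKO, with median changes of -0.64 and -0.89. POLE2, a subunit of the leading-strand polymerase epsilon, measured 5.32 and 5.41 in V71 DF and 6.30 and 6.09 in V71 NDF, and 4.43 and 4.91 in PLKO DF and 5.999 and 6.16 in PLKO NDF. It fell by 0.83 ± 0.15 (adjusted p = 0.00497) in V71 and by 1.41 ± 0.15 (adjusted p = 0.000187) in PLKO, and the PLKO DF arrays were 0.48 apart. DSCC1, part of an alternative clamp loader that acts in sister chromatid cohesion, measured 5.23 and 5.48 in V71 DF, against 6.17 and 6.24 in V71 NDF, and 4.83 and 5.10 in PLKO DF, against 6.13 and 6.12 in PLKO NDF. It fell by 0.85 ± 0.12 (adjusted p = 0.000994) in V71 and by 1.16 ± 0.12 (adjusted p = 0.00013) in PLKO. POLA2, the second subunit of the polymerase that starts each strand together with primase, had 7.13 and 6.88 in V71 DF and 7.76 and 7.74 in V71 NDF, and 6.37 and 6.69 in PLKO DF and 7.72 and 7.70 in PLKO NDF. It fell by 0.74 ± 0.12 (adjusted p = 0.00285) in V71 and by 1.18 ± 0.12 (adjusted p = 0.000152) in PLKO. PCNA, the sliding clamp and a common marker of dividing cells, measured 8.41 and 8.42 in V71 DF, against 9.25 and 9.00 in V71 NDF, and 7.84 and 8.01 in PLKO DF, against 8.90 and 8.97 in PLKO NDF. It fell by 0.71 ± 0.10 (adjusted p = 0.00158) in V71 and by 1.01 ± 0.10 (adjusted p = 0.000164) in PLKO, about 1.64-fold and 2.01-fold.

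A further 4 genes of this group were called lower in PLKO alone. RFC3 of the main clamp loader measured 8.72 and 8.73 in V71 DF and 9.20 and 9.05 in V71 NDF, and 8.32 and 8.35 in PLKO DF and 9.18 and 9.28 in PLKO NDF. It changed by -0.40 ± 0.09 in V71 (adjusted p = 0.015) and fell by 0.89 ± 0.09 (adjusted p = 0.000124) in PLKO. RFC2 of the same complex measured 8.03 and 7.94 in V71 DF, against 8.33 and 8.39 in V71 NDF, and 7.41 and 7.61 in PLKO DF, against 8.27 and 8.26 in PLKO NDF. It changed by -0.37 ± 0.09 in V71 (adjusted p = 0.0271) and fell by 0.76 ± 0.09 (adjusted p = 0.00051) in PLKO. For both clamp loader genes the V71 DF arrays lay between the PLKO DF arrays and the NDF arrays of the lines. FEN1, the nuclease that trims Okazaki fragments, measured 7.44 and 7.02 in V71 DF and 7.80 and 7.83 in V71 NDF, and 6.63 and 6.78 in PLKO DF and 7.60 and 7.54 in PLKO NDF. Its change of -0.58 ± 0.13 in V71 (adjusted p = 0.0151) was just short of 1.5-fold, and it fell by 0.86 ± 0.13 (adjusted p = 0.00188) in PLKO. POLE, the catalytic subunit of polymerase epsilon, measured 6.95 and 6.92 in V71 DF, against 7.53 and 7.48 in V71 NDF, and 6.60 and 6.68 in PLKO DF, against 7.42 and 7.23 in PLKO NDF. It changed by -0.57 ± 0.09 in V71 (adjusted p = 0.00261) and fell by 0.68 ± 0.09 (adjusted p = 0.000877) in PLKO. The remaining 5 genes, POLA1, PRIM1, POLD3, RFC4 and RFC5, were called lower in both lines, with changes of -0.61 to -0.76 in V71 and -0.61 to -0.93 in PLKO.

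Among the 4 genes of nucleotide supply, 3 were called lower in both lines and the fourth in neither. RRM2 and TYMS had the largest mean falls of the list over both lines. TYMS, thymidylate synthase, which makes the thymidine nucleotide, measured 7.87 and 7.75 in V71 DF and 8.81 and 8.90 in V71 NDF, and 6.98 and 7.04 in PLKO DF and 8.62 and 8.62 in PLKO NDF. It fell by 1.05 ± 0.09 (adjusted p = 4.59e-05) in V71, 2.07-fold, and by 1.61 ± 0.09 (adjusted p = 3.07e-06) in PLKO, 3.04-fold, the largest fall of the list in either line. RRM2, the S phase subunit of ribonucleotide reductase, measured 6.27 and 6.20 in V71 DF, against 7.19 and 7.60 in V71 NDF, and 5.44 and 5.58 in PLKO DF, against 7.13 and 6.94 in PLKO NDF. It fell by 1.16 ± 0.14 (adjusted p = 0.000405) in V71 and by 1.52 ± 0.14 (adjusted p = 6.07e-05) in PLKO. RRM1, the large subunit of the same enzyme, measured 8.15 and 8.14 in V71 DF and 9.18 and 8.91 in V71 NDF, and 7.69 and 7.86 in PLKO DF and 8.80 and 8.98 in PLKO NDF, and it fell by 0.91 ± 0.11 (adjusted p = 0.000633) in V71 and by 1.12 ± 0.11 (adjusted p = 0.000149) in PLKO.

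DUT, which encodes the enzyme that clears dUTP and so keeps uracil out of DNA, was the only gene of the list whose DF and NDF arrays overlapped in both lines. It measured 7.20 and 7.06 in V71 DF, against 7.24 and 7.17 in V71 NDF, and 6.79 and 6.996 in PLKO DF, against 6.93 and 7.25 in PLKO NDF. Its change was -0.08 ± 0.12 in V71 (adjusted p = 0.791, 95% interval -0.349 to 0.196) and -0.19 ± 0.12 in PLKO (adjusted p = 0.41, 95% interval -0.465 to 0.0794). These intervals leave out a fall of 1.5-fold in both lines.

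Of the 6 genes for E type cyclins and E2F factors, 4 were called lower in V71 and 5 in PLKO, with median changes of -0.88 and -0.97. E2F7 and E2F8, the atypical E2F factors that repress other E2F targets late in S phase, were among those that fell most. E2F7 measured 4.84 and 4.80 in V71 DF and 6.02 and 6.14 in V71 NDF, and 4.45 and 4.36 in PLKO DF and 5.76 and 5.77 in PLKO NDF, and it fell by 1.26 ± 0.09 (adjusted p = 1.52e-05) in V71, the largest fall of the list in that line, and by 1.36 ± 0.09 (adjusted p = 7.6e-06) in PLKO. E2F8 measured 4.59 and 4.65 in V71 DF, against 5.58 and 5.82 in V71 NDF, and 4.39 and 4.36 in PLKO DF, against 5.61 and 5.52 in PLKO NDF, and it fell by 1.08 ± 0.10 (adjusted p = 8.85e-05) in V71 and by 1.19 ± 0.10 (adjusted p = 3.74e-05) in PLKO. E2F2, an activator, measured 5.15 and 5.16 in V71 DF and 5.85 and 6.06 in V71 NDF, and 4.69 and 4.75 in PLKO DF and 5.82 and 5.73 in PLKO NDF. It fell by 0.80 ± 0.09 (adjusted p = 0.000448) in V71 and by 1.05 ± 0.09 (adjusted p = 6.69e-05) in PLKO. E2F1, the best known activator, measured 6.56 and 6.26 in V71 DF, against 6.79 and 6.84 in V71 NDF, and 5.90 and 5.98 in PLKO DF, against 6.56 and 6.62 in PLKO NDF. This factor changed by -0.41 ± 0.11 in V71 (adjusted p = 0.0314) and was called lower in PLKO, by 0.64 ± 0.11 (adjusted p = 0.00321).

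Of the 2 E type cyclins, which drive CDK2 at the entry into S phase, CCNE2 was called lower in both lines and CCNE1 in neither. CCNE2 measured 4.95 and 4.83 in V71 DF and 6.02 and 5.67 in V71 NDF, and 4.98 and 4.86 in PLKO DF and 5.61 and 6.01 in PLKO NDF. It fell by 0.95 ± 0.15 (adjusted p = 0.00243) in V71 and by 0.89 ± 0.15 (adjusted p = 0.00389) in PLKO. CCNE1 measured 6.26 and 6.25 in V71 DF, against 6.36 and 6.37 in V71 NDF, and 6.11 and 6.001 in PLKO DF, against 6.49 and 6.47 in PLKO NDF. Its change was -0.11 ± 0.08 in V71 (adjusted p = 0.512, 95% interval -0.289 to 0.0758) and -0.43 ± 0.08 in PLKO (adjusted p = 0.00727), short of 1.5-fold. In each line the change of CCNE1 was smaller than that of CCNE2, a difference between genes that was not tested.

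Among the 7 genes that act on chromatin and histones in S phase, 5 were called lower in V71 and 6 in PLKO, with median changes of -0.85 and -1.01. CENPU, a centromere protein, measured 5.32 and 5.47 in V71 DF and 6.46 and 6.37 in V71 NDF, and 4.96 and 5.23 in PLKO DF and 6.49 and 6.59 in PLKO NDF. It fell by 1.01 ± 0.11 (adjusted p = 0.000262) in V71 and by 1.44 ± 0.11 (adjusted p = 2.41e-05) in PLKO. ATAD2, a bromodomain protein that works with E2F factors, measured 6.82 and 6.91 in V71 DF, against 7.97 and 7.73 in V71 NDF, and 6.32 and 6.47 in PLKO DF, against 7.68 and 7.62 in PLKO NDF. It fell by 0.99 ± 0.10 (adjusted p = 0.000218) in V71 and by 1.25 ± 0.10 (adjusted p = 3.93e-05) in PLKO. CDCA7, a zinc finger protein needed to keep DNA methylated, measured 6.77 and 6.70 in V71 DF and 7.74 and 7.64 in V71 NDF, and 6.43 and 6.68 in PLKO DF and 7.70 and 7.71 in PLKO NDF, and it fell by 0.96 ± 0.10 (adjusted p = 0.000218) in V71 and by 1.15 ± 0.10 (adjusted p = 5.7e-05) in PLKO. UHRF1, which brings the maintenance methyltransferase to newly copied DNA, measured 6.96 and 6.86 in V71 DF, against 7.53 and 7.98 in V71 NDF, and 6.75 and 6.44 in PLKO DF, against 7.69 and 7.51 in PLKO NDF, with falls of 0.85 ± 0.16 (adjusted p = 0.00597) in V71 and 1.01 ± 0.16 (adjusted p = 0.00234) in PLKO. UHRF1 has 2 rows, and with their mean in place of the brighter row its changes were -0.47 in V71 and -0.50 in PLKO and neither was called.

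The 2 subunits of chromatin assembly factor 1 in the list, which places histones behind the fork, were both called lower in PLKO, and CHAF1A in V71 as well. CHAF1A fell by 0.60 ± 0.08 (adjusted p = 0.00086) in V71 and by 0.98 ± 0.08 (adjusted p = 3.2e-05) in PLKO. CHAF1B measured 6.98 and 6.86 in V71 DF and 7.41 and 7.48 in V71 NDF, and 6.44 and 6.58 in PLKO DF and 7.08 and 7.23 in PLKO NDF. It changed by -0.53 ± 0.10 in V71 (adjusted p = 0.00535) and was called lower in PLKO, by 0.65 ± 0.10 (adjusted p = 0.00171). SLBP, which binds the stem-loop of histone messages, measured 6.83 and 6.72 in V71 DF, against 7.22 and 6.94 in V71 NDF, and 6.60 and 6.53 in PLKO DF, against 6.93 and 6.93 in PLKO NDF. Its changes of -0.31 ± 0.10 in V71 (adjusted p = 0.0939) and -0.37 ± 0.10 in PLKO (adjusted p = 0.0503) passed neither threshold, although the DF arrays lay below the NDF arrays in each line.

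All 8 measured genes of the checkpoint and of repair at forks were called lower in both lines, with median changes of -0.95 in V71 and -1.28 in PLKO. BLM, the helicase mutated in Bloom syndrome, measured 6.55 and 6.60 in V71 DF, against 7.79 and 7.65 in V71 NDF, and 6.08 and 6.29 in PLKO DF, against 7.64 and 7.64 in PLKO NDF. It fell by 1.14 ± 0.10 (adjusted p = 5.6e-05) in V71 and by 1.46 ± 0.10 (adjusted p = 9.72e-06) in PLKO. EXO1, a nuclease of mismatch repair and end resection, measured 8.38 and 8.35 in V71 DF and 9.44 and 9.39 in V71 NDF, and 7.86 and 7.97 in PLKO DF and 9.38 and 9.34 in PLKO NDF. It fell by 1.05 ± 0.08 (adjusted p = 3.59e-05) in V71 and by 1.44 ± 0.08 (adjusted p = 4.27e-06) in PLKO. CLSPN, which encodes claspin, the carrier of the checkpoint signal at stalled forks, measured 6.17 and 6.51 in V71 DF, against 7.43 and 7.63 in V71 NDF, and 5.58 and 6.02 in PLKO DF, against 7.12 and 6.97 in PLKO NDF. It fell by 1.19 ± 0.16 (adjusted p = 0.000982) in V71 and by 1.24 ± 0.16 (adjusted p = 0.000725) in PLKO. BRCA1, a factor of homologous recombination, measured 6.49 and 6.40 in V71 DF and 7.31 and 7.26 in V71 NDF, and 5.44 and 5.78 in PLKO DF and 7.08 and 7.06 in PLKO NDF, and it fell by 0.84 ± 0.11 (adjusted p = 0.000887) in V71 and by 1.46 ± 0.11 (adjusted p = 2.39e-05) in PLKO. The other 4 genes, BRIP1, RAD51AP1, DTL and MCM8, changed by -0.64 to -0.95 in V71 and by -0.92 to -1.31 in PLKO.

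The order of the changes was much alike in the lines. Over the 55 genes the change in V71 and the change in PLKO had a Spearman correlation of 0.845 and a Pearson correlation of 0.859, which is across genes that share arrays and is a description only. The mean change bore no such relation to the NDF level (Spearman correlation -0.0172 over the 55 genes).

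Between the lines, the levels of the DNA replication and S phase genes were mostly higher in V71, and the calls lay almost all in DF. In DF, V71 minus PLKO had a median of 0.42 over the 55 genes (range -0.51 to 0.84), 52 genes were above 0, 8 were called higher and none lower, where 1.81% of all genes were called higher and 1.26% lower. The median over all genes was 0.00542, and 9440 of the 18377 genes were above 0. Both V71 DF arrays lay above both PLKO DF arrays for 52 genes, against 24.6% of all genes. Without the fold threshold 30 genes were higher in V71 DF at an adjusted p below 0.05, against 3.75% of all genes, and MCM3 was lower. In NDF the median was 0.15 (range -0.60 to 0.48, and 0.09 without V71 NDF replicate 2), 44 genes were above 0, and 1 gene was called, MCM3, which was lower. None was called higher. Over all genes 1.54% were called lower and 0.615% higher in NDF, the median was 0.0123, and 9907 of the 18377 genes were above 0. Both V71 NDF arrays lay above both PLKO NDF arrays for 33 genes, against 26.0% of all genes.

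The 8 genes called higher in V71 DF came from 5 of the 7 role groups. BRCA1 had 6.49 and 6.40 in V71 DF and 5.44 and 5.78 in PLKO DF, a difference of 0.84 ± 0.11 (adjusted p = 0.00259), 1.78-fold. TYMS had 7.87 and 7.75 in V71 DF and 6.98 and 7.04 in PLKO DF, a difference of 0.80 ± 0.09 (adjusted p = 0.000799), 1.74-fold. RRM2 followed with 0.72 ± 0.14 (adjusted p = 0.0149) and POLE2 with 0.69 ± 0.15 (adjusted p = 0.0295). Neither TYMS nor RRM2 was called between the lines in NDF, where TYMS differed by 0.24 ± 0.09 (adjusted p = 0.256) and RRM2 by 0.36 ± 0.14 (adjusted p = 0.277). The 4 others were CDC6 with 0.64 ± 0.11 (adjusted p = 0.00772), GINS3 with 0.61 ± 0.09 (adjusted p = 0.0037), ORC6 with 0.60 ± 0.13 (adjusted p = 0.034) and MCM10 with 0.59 ± 0.08 (adjusted p = 0.0034). GINS3 was already higher in V71 in NDF, by 0.44 ± 0.09 (adjusted p = 0.0308), short of 1.5-fold. The spread of the PLKO DF arrays was wide for several of them, with 5.54 and 5.99 for ORC6 and 4.43 and 4.91 for POLE2, where replicate 1 was the lower. Without PLKO DF replicate 1 there were 3 calls, TYMS, BRCA1 and GINS3, and the differences of ORC6 and POLE2 were 0.37 and 0.45. Without V71 DF replicate 1, 4 genes were called higher and 1 lower, and of the 8 only TYMS and BRCA1 were among them. Leaving out V71 DF replicate 2 gave 12 calls. TYMS was called in DF under every alternative tried but a threshold of 2-fold, which none of the 8 passed.

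**Figure D3:**
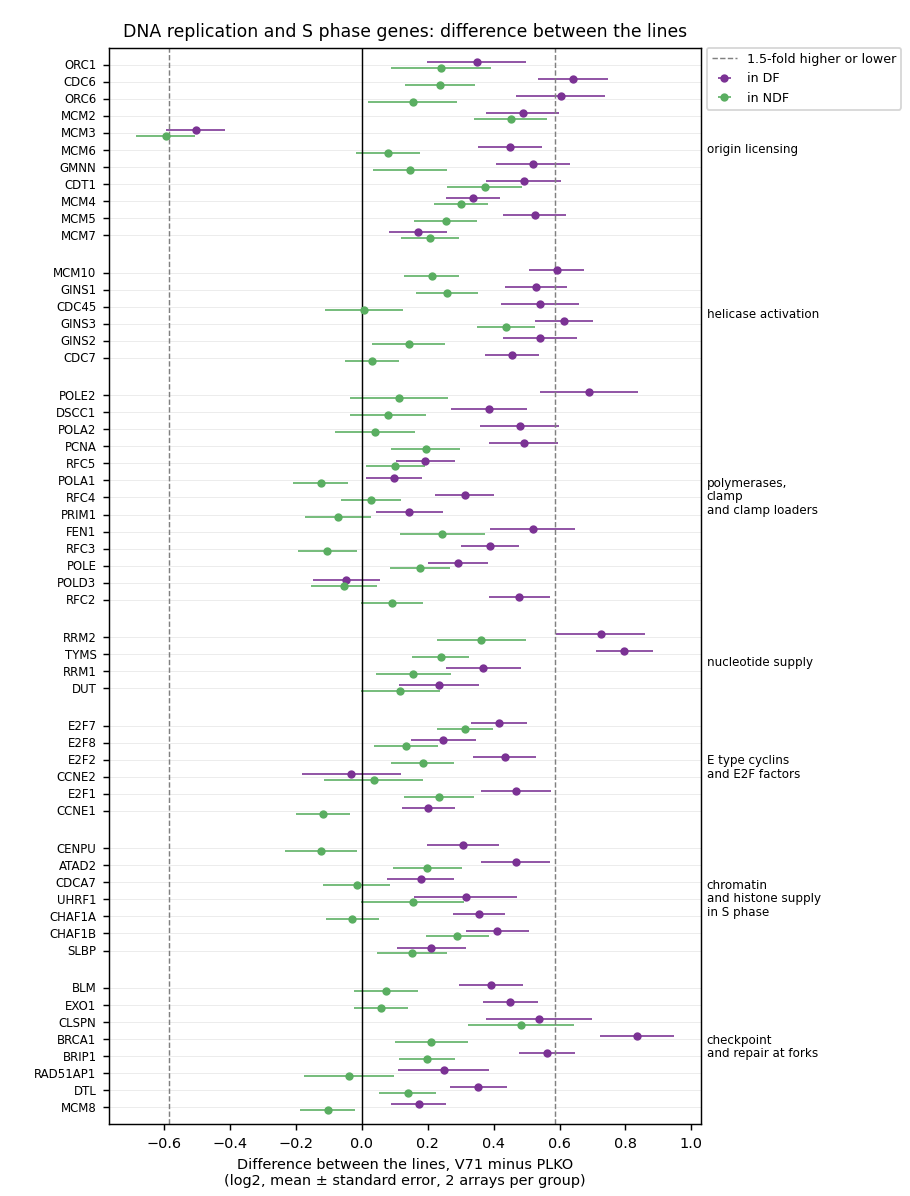
Difference between the lines (V71 minus PLKO, log2, mean and standard error from the fit, 2 arrays per group) of each of the 55 genes by role group, in DF (purple) above NDF (green), with dashed lines at 1.5-fold. In DF 52 genes lie right of 0 and in NDF 44 do, and MCM3 lies far left in both.

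The fall upon differentiation was smaller in V71 than in PLKO for 53 of the 55 genes, and for no single gene was this difference called. The difference, the change in V71 minus the change in PLKO, had a median of 0.27 (range -0.07 to 0.62) against -0.00474 over all genes, of which 49.0% lay above 0. The exceptions were MCM7 at -0.04 (95% interval -0.318 to 0.244) and CCNE2 at -0.07 (95% interval -0.546 to 0.41). Over all genes 1.09% were called higher and 0.305% lower in this comparison. The smallest adjusted p of the list was 0.0876, for TYMS, at 0.56 ± 0.12 (95% interval 0.284 to 0.831, adjusted p from 0.0284 to 0.317 over the alternatives), and the largest difference was that of BRCA1, 0.62 ± 0.16 (adjusted p = 0.146, 95% interval 0.271 to 0.978). By limma's test at an unadjusted p under 0.05, 21 of the 55 genes were above 0, against 6.32% of all genes. The median ratio of the change in V71 to that in PLKO was 0.74, from 0.25 for CCNE1 to 1.08 for MCM7. By role group the median difference was lowest for licensing at 0.12 and highest for helicase activation at 0.39. The median 95% interval, not adjusted for the number of genes, reached 0.319 on either side of the value at 2 arrays per group. A call asked for more, an adjusted p below 0.05 and a fold of 1.5 or more, 0.585 on this scale. Differences above 0.319 could thus go uncalled, as that of BRCA1 did. The differences in the change and the comparison in DF share the same arrays and are not separate evidence.

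Other measures moved between the lines on the same arrays. The mean level of the 29 measured genes of G2 and mitosis was 6.16 and 6.09 in V71 DF and 7.61 and 7.58 in V71 NDF, and 5.36 and 5.46 in PLKO DF and 7.44 and 7.44 in PLKO NDF. All 29 were called lower upon differentiation in each line, against 3.55% of all genes in V71 and 4.16% in PLKO. Their median changes were -1.46 in V71 and -2.04 in PLKO. In DF, 19 were called higher in V71 than in PLKO, against 1.81% of all genes. Over the 29 genes the median ratio of the change in V71 to that in PLKO was 0.727, and 28 fell less in V71. The mean level of the 20 S-type markers was 4.49 and 4.35 in V71 DF and 4.48 and 4.55 in V71 NDF, and 4.73 and 4.72 in PLKO DF and 5.07 and 5.10 in PLKO NDF. In V71, 3 of these were called lower than in PLKO in DF, against 1.26% of all genes, and 7 in NDF, against 1.54%. In the comparison of the changes 4 were called above 0, against 1.09% of all genes. They were VIM at 1.44, LUM at 1.23, SNAI2 at 1.11 and DCN at 0.90. Of the 20 markers, 12 lay above 0 in that comparison and 8 below, with a median of 0.08. V71 minus PLKO had a median of 0.01 in DF, with 11 markers above 0 and 9 below. In NDF its median was -0.10, with 6 above 0 and 14 below. The part of S-type cells in the differences between the lines was not tested.

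**Figure D4:**
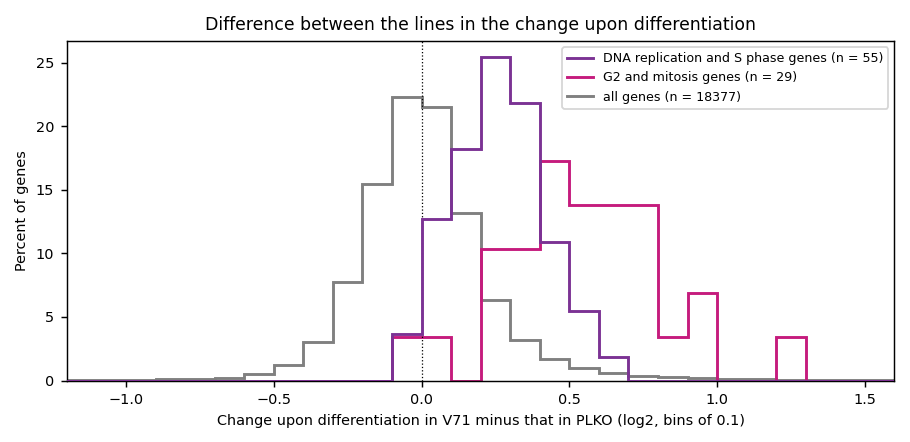
Share of genes in bins of 0.1 of the change upon differentiation in V71 minus that in PLKO (log2), for the 55 DNA replication and S phase genes, the 29 genes of G2 and mitosis and all 18377 genes. The replication genes lie mostly right of 0 with a median of 0.27, the genes of G2 and mitosis further right with a median of 0.53, and all genes are centred near 0.

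Genes of the same pathways outside the list were counted in the same way. Over all genes, 3.55% were called lower upon differentiation in V71 and 4.16% in PLKO. Between the lines, 1.81% of all genes were called higher and 1.26% lower in DF, and 0.615% higher and 1.54% lower in NDF. Of 30 other genes of the replisome and of licensing, 9 were called lower in V71 and 10 in PLKO, with median changes of -0.42 and -0.45. The largest mean falls over both lines were those of TICRR, which helps CDC45 to join the helicase, with -1.07 in V71 and -1.55 in PLKO, WDHD1, which ties the polymerase to the helicase, with -1.003 in V71 and -1.30 in PLKO, and DNA2, a nuclease, with -0.87 in V71 and -1.201 in PLKO. None of the 30 was called between the lines. Of 10 measured genes of nucleotide supply outside the list, 2 were called lower in each line, SAMHD1, which breaks nucleotides down, with -1.04 in V71 and -1.02 in PLKO, and TK1, thymidine kinase, with -0.78 in V71 and -0.82 in PLKO. Of 14 other genes of E2F and pocket proteins, 2 were called lower in each line, RBL1, the pocket protein p107, in both with -0.93 in V71 and -1.05 in PLKO, TFDP2 in V71 with -0.67 and LIN9 in PLKO with -0.84. Of 12 measured genes of the checkpoint and of recombination outside the list, 5 were called lower in V71 and 6 in PLKO, with the largest mean falls in XRCC2 with -1.43 in V71 and -1.60 in PLKO, RAD54L with -0.93 in V71 and -1.52 in PLKO, and FANCI with -0.94 in V71 and -1.35 in PLKO. BARD1, the partner of BRCA1, was the only gene of these lists called between the lines in DF, where it was 0.68 ± 0.10 higher in V71 (adjusted p = 0.00556). Of 11 measured genes of D cyclins, their kinases, CDK inhibitors and quiescence, CCND1 and CDK4 were the only ones called upon differentiation, both in V71, with -0.78 and -0.59, and CDK4 also in PLKO, with -0.63. CCND1 is cyclin D1 and CDK4 its kinase, which promote entry into the cell cycle. CDK6, another partner of the D cyclins, was called between the lines in NDF, where it was higher in V71 by 0.93 ± 0.11 (adjusted p = 0.00171).

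The promoter windows were searched for short words, which were not themselves used in the choice of the genes. Genes of this machinery are known for transcription by E2F factors, so the choice was not independent of the E2F word. Of the 55 genes, 48 had a RefSeq window of 250 bases before and 50 after the start, and 25 of these (52.1%) held at least 1 E2F word, against 3.33% of the windows of 27305 genes and 4.44% of those of 15843 protein-coding genes. Of 24 windows of G2 and mitosis genes, 12.5% held an E2F word. The CHR word, searched as TTTGAA or TTCGAA on both strands and known from genes of G2 and mitosis, was in 6.25% of the windows of the replication genes, in 66.7% of those of G2 and mitosis and in 16.6% of all. No word searched contains another. The word CCAAT, bound by NF-Y, was in 58.3% of the windows of the replication genes, in 70.8% of those of G2 and mitosis and in 35.7% of all. The windows of the replication genes had a median GC content of 64.7%, against 58.3% over all windows and 62.7% over those of protein-coding genes, and the part of base composition in these shares was not tested. MCM6 held 4 E2F words, and MCM2, MCM3, MCM7 and E2F1 held 2 each. The 25 genes with the word had median changes of -0.80 in V71 and -1.02 in PLKO, and the 23 genes without it -0.77 in V71 and -1.12 in PLKO. Genes with the word thus had the larger median fall in V71 and the smaller one in PLKO, which was not tested.

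**Figure D5:**
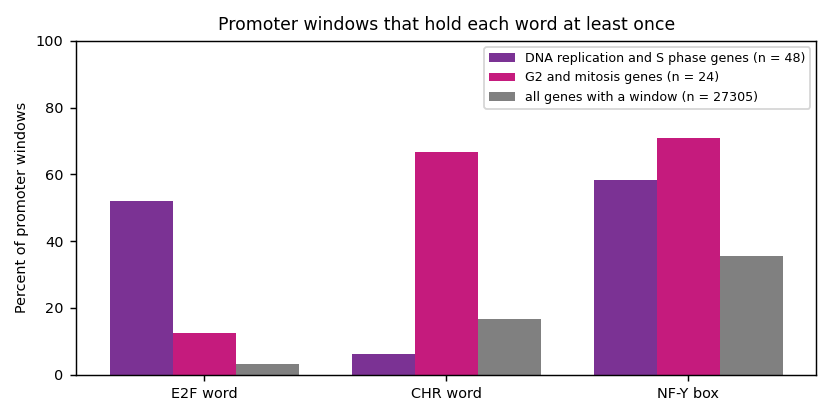
Percent of promoter windows that hold each word at least once, for the 48 DNA replication and S phase genes, the 24 genes of G2 and mitosis and all 27305 genes with a window. The E2F word is most frequent in the replication genes (52.1%) and the CHR word in the genes of G2 and mitosis (66.7%), and NF-Y box stands for the CCAAT word.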

How the data were processed

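Total RNA was hybridised to 8 Affymetrix Human Gene 1.0 ST arrays, and the authors deposited log2 values made by RMA (robust multi-array average) in Partek Genomics Suite 6.5, 1 column per array. The genome build of the array design is not given in the sources used here. RMA brings the arrays to 1 distribution, so a shift of all RNA would not be seen, and it compresses low values. Of 28869 rows, 19310 name 1 gene symbol, 1752 several and 7807 none. All rows stayed in the fit and the adjustment, and each gene is described by its row with 1 symbol, the one with the highest mean where there are several (18377 genes). Probe intensities were not used here, and the number of arrays limits the precision.

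Group means were fitted over the 8 arrays with limma 3.58.1 in R 4.3.3 (lmFit and eBayes, 4 residual and 5.43 prior degrees of freedom, two-sided). The 5 comparisons were DF minus NDF in each line, V71 minus PLKO in each condition, and the change in V71 minus that in PLKO. p-values were adjusted by Benjamini-Hochberg within each comparison. The code was also run on simulated data with known changes in PLKO DF alone and noise drawn separately for each row. Genes that move together were not simulated, and the outcome is not reported here.

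The genes, role groups, other lists and alternatives were chosen with earlier results of these data known. Array values are given for up to 4 genes per role group with the largest mean change over both lines, for genes called between the lines or upon differentiation in 1 line only, and for the 3 genes with the smallest mean change, and up to 3 called genes of the other lists are named. MCM7, BARD1, CDK6, CHAF1A and the S-type markers were added after their values were seen. Alternatives were no moderation (analysis of variance, as the authors used), another prior, 3 normalizations, a filter on dim rows, other choices of rows and thresholds, the replicate number as a block, only the arrays compared, and each array left out.

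DF arrays are numbered 1 and 2 and NDF arrays 2 and 3. Same-numbered arrays of the lines deviated from their group means with a correlation of 0.188 in DF and -0.176 in NDF over all rows. With 2 arrays per group this cannot show whether such arrays share a culture or a day, which the labels do not say. The numbers were not taken as pairs in the main fit.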

Additional observations from a re-analysis of the deposited data

Results flagged for a closer look

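No DNA replication or S phase gene met a rule for a closer look. Of the genes of G2 and mitosis measured beside them, 6 differed between the lines in the change upon differentiation, with limma's adjusted p below the threshold, and all 6 fell less in V71 than in PLKO. The change in V71 minus that in PLKO was 1.27 ± 0.19 for HMMR (SE, adjusted p = 0.0137), 0.942 ± 0.15 for CENPF (adjusted p = 0.0181), 0.941 ± 0.18 for CENPE (adjusted p = 0.044), 0.781 ± 0.15 for NDC80 (adjusted p = 0.0482), 0.747 ± 0.14 for BUB1 (adjusted p = 0.0456) and 0.666 ± 0.13 for KIF20A (adjusted p = 0.0491). HMMR binds spindle microtubules, CENPE, CENPF and NDC80 belong to the kinetochore, BUB1 is a kinase of the spindle checkpoint and KIF20A is a kinesin of cytokinesis. Of the 29 genes, 6 were thus called in this comparison, where 1.09% of all genes were called higher. The calls were 0 without moderation, 1 at 2-fold, 2 with the replicate block and 3 with that block and the NDF numbers crossed. They ran from 0 to 4 when 1 array was left out, with 0 without V71 DF replicate 1, PLKO DF replicate 1 or PLKO NDF replicate 3. There were 9 calls with the trended prior and 11 with the adjustment over rows with 1 symbol.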

How the results depend on the processing

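None of the single-gene results recomputed here reversed its direction under any alternative (55 changes upon differentiation in each line, 9 differences between the lines in DF, 1 in NDF and 3 in the comparison of the changes). With 1 array left out, 42 to 45 genes of the list were above 0 between the lines in NDF and 49 to 53 in the comparison of the changes, so some genes did change sign there. Of the genes called lower upon differentiation, 27 of 42 in V71 and 44 of 51 in PLKO stayed called under every alternative but the threshold of 2-fold, which left 11 in V71 and 30 in PLKO. With 1 array left out there were 40 to 47 calls in V71 and 49 to 51 in PLKO. Between the lines in DF, the 8 calls became 2 without moderation, 31 with no fold threshold and 0 at 2-fold, and 3 to 12 with 1 array left out, with 3 without PLKO DF replicate 1. Between the lines in NDF, the single call, MCM3, gave way to 0 calls without moderation and 0 at 2-fold, there were 2 with no fold threshold, and leaving out an array gave 0 to 1. In the comparison of the changes there were 0 calls under every alternative but one left-out array (range 0 to 1), where BRCA1 was called without PLKO DF replicate 2 (0.79, adjusted p = 0.0343, with 0.0343 to 0.488 over its alternatives). The median of that comparison over the list was 0.22 to 0.31 with 1 array left out.

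The replicate block gave 8 calls in DF, 1 in NDF and 0 in the comparison of the changes, as without it. With the NDF numbers crossed, an alternative chosen after seeing the data, the block gave 8, 1 and 0. No paired analysis was possible for DF minus NDF because NDF and DF arrays share only 1 replicate number. With 2 arrays per group, the unadjusted 95% interval of a difference in the change reached about 0.319 on either side for a typical gene. The rule for a call was stricter, so differences above this size could go uncalled.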
